A study of Mus musculus with 4 samples.

Results

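The genes of rod and cone bipolar cells were examined by RNA-seq in retinal cells of the mouse that FACS had collected by their mTFP signal. The 32 genes were taken by symbol from a list of genes known in bipolar cells, and all 32 were found among the 24322 gene symbols of the files. They were divided into 11 genes of the ON pathway, 4 of rod bipolar cells, 7 of OFF cone bipolar cells and 10 that several bipolar types use or that were not assigned to a type here. Each of the 4 libraries came from 1 mouse treated with tamoxifen, and the paper's methods give injection at P4 and harvest at P14. The 2 controls, mice 7984 and 3911, were Raxflox/WT, and the 2 *Rax* iCKO mice, 7983 and 3914, were Raxflox/flox. All 4 mice also carried Rlbp1-CreERT2 and R26-CAG-LoxP-mTFP1, so that the controls too had been exposed to Cre and had 1 floxed *Rax* allele, and the labels give 129S6 for every sample. CreERT2, a Cre recombinase that tamoxifen activates, was driven by a promoter fragment of *Rlbp1*, a gene of Müller glial cells that the retinal pigment epithelium also uses, and mTFP1 is the fluorescent protein that Cre switches on.

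Bipolar cells carry the signals of photoreceptors to the inner retina. Rod bipolar cells and ON cone bipolar cells sense glutamate with the receptor mGluR6, whose G protein Go keeps the cation channel TRPM1 closed in the dark, and RGS proteins that speed the shutdown of Go let the channel open in light. OFF cone bipolar cells use ionotropic glutamate receptors, and all bipolar cells release glutamate at ribbon synapses. Müller glial cells and bipolar cells both arise late in the retinal progenitor lineage, and the sort was made for mTFP-positive cells with Müller glial cells as its named target.

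The libraries are described by FPKM, the fragments on a gene scaled to its exon length and to the mapped fragments of the library. *Rax*, the targeted gene, was at 189.1 and 181.4 FPKM in the controls (mice 7984 and 3911) against 111 and 98.4 FPKM in *Rax* iCKO (mice 7983 and 3914), which is the order of the labels. The depth was estimated from the steps of low values at between 9100000 and 12500000 mapped reads, with control mouse 7984 the deepest. The mice fall into 2 runs of numbers, 7983 with 7984 and 3911 with 3914, each with 1 mouse of each genotype, and the labels do not say what a run shares. The libraries also differed in sex-linked RNA. *Xist*, an RNA of the silenced X chromosome, measured 24.5 and 21.2 FPKM in the controls (mice 7984 and 3911) against 0.0119 and 0.00605 FPKM in *Rax* iCKO (mice 7983 and 3914). The Y-linked gene *Ddx3y* was at 12.4 FPKM in *Rax* iCKO mouse 7983 and was listed at 0 in the other 3 libraries. Of the bipolar genes, *Nyx* lies on the X chromosome. *Xist* split the libraries as genotype did, so a difference that goes with it cannot be told apart from one of genotype here. The part of these differences in the results below was not tested.

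Bipolar genes were among the most abundant transcripts of these cells. Of the 32 genes, 32 were above 0 in every library, 21 were above 10 FPKM in every library and 12 were above 100 FPKM in every library, and 12 were among the 1000 genes with the highest mean FPKM. *Pcp2* had the highest FPKM of all genes in mice 3911 and 3914, and it was in place 4 in mouse 7983 and in place 13 in mouse 7984. The summed FPKM of the 32 genes was 5806 and 13311 in the controls (mice 7984 and 3911) against 7955 and 11547 in *Rax* iCKO (mice 7983 and 3914), which was between 1.10% and 2.16% of all FPKM of a library. The genotypes overlapped in this sum (exact permutation test, two-sided, p = 1), and both mice of the 3911 and 3914 run lay above both mice of the other run (exact permutation test, two-sided, p = 0.33, the smallest that 2 against 2 allow). *Pcp2* and *Gng13* made up most of the sum. Without them it was 2399 and 4053 in the controls (mice 7984 and 3911) against 3392 and 4422 in *Rax* iCKO (mice 7983 and 3914). In RNA from sorted cells, fewer cells of a type and less RNA per cell cannot be told apart.

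**Figure D1:**
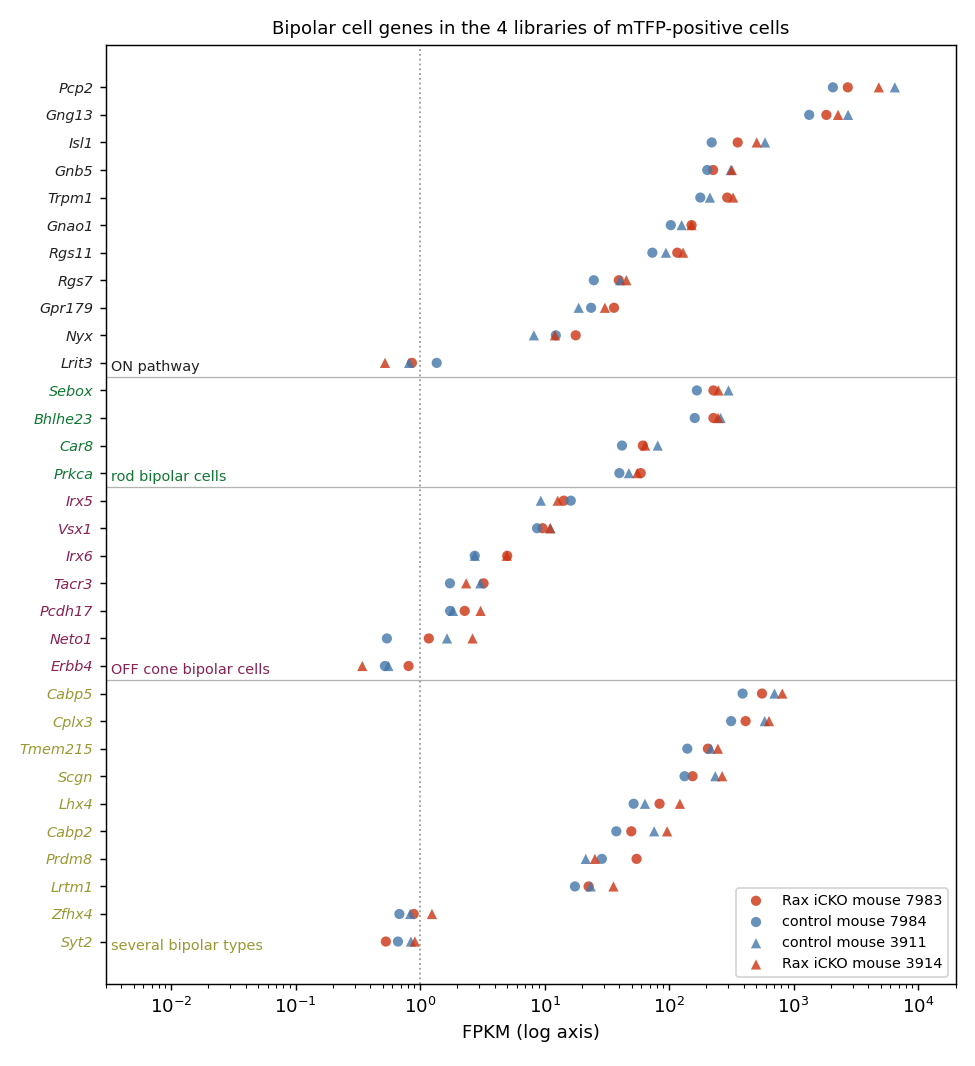
FPKM of the 32 bipolar genes (log axis) in the 4 libraries, 1 point per mouse, with blue for control, red for *Rax* iCKO, circles for mice 7983 and 7984 and triangles for mice 3911 and 3914, and the dotted line at 1 FPKM. The gene names are colored by group, and the ON pathway genes run from *Pcp2* at 2071 to 6515 FPKM down to *Lrit3* at 0.523 to 1.36 FPKM.

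The ON pathway genes ranged from the most abundant of the 32 to under 1 FPKM, and among them *Pcp2* lies at chr8:3623369-3625547 on the minus strand and *Trpm1* at chr7:64153835-64269772 on the plus strand of GRCm38. *Pcp2*, a modulator of Go in ON bipolar cells, was at 2071 and 6515 FPKM in the controls (mice 7984 and 3911) against 2727 and 4846 FPKM in *Rax* iCKO (mice 7983 and 3914). *Gng13*, a G protein gamma subunit, was at 1337 and 2742 FPKM in the controls against 1836 and 2278 FPKM in *Rax* iCKO. Both genes were lowest in control mouse 7984 and highest in control mouse 3911, so that the *Rax* iCKO values lay between the controls. *Gnao1*, the alpha subunit of Go, was at 103 and 126 FPKM in the controls against 152 and 152 FPKM in *Rax* iCKO, with both *Rax* iCKO libraries above both controls. *Gnb5*, the beta subunit that pairs with RGS7 and RGS11, was at 203 and 313 FPKM in the controls against 226 and 319.6 FPKM in *Rax* iCKO, and it separated the number runs rather than the genotypes. Of the 2 RGS proteins that shut Go down, *Rgs7* was at 24.9 and 40.6 FPKM in the controls against 39.5 and 45.4 FPKM in *Rax* iCKO, so that the genotypes overlapped. *Rgs11* was at 73.5 and 94.4 FPKM in the controls against 116 and 129.8 FPKM in *Rax* iCKO, without overlap. *Gpr179*, the orphan receptor that anchors the RGS proteins, was at 23.7 and 18.8 FPKM in the controls against 36.2 and 30.6 FPKM in *Rax* iCKO, again without overlap. *Trpm1*, the channel, showed the same order, with 178 and 213 FPKM in control and 293 and 327 FPKM in *Rax* iCKO.

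Nyctalopin, the product of *Nyx*, and LRIT3 are leucine-rich proteins that TRPM1 needs at the dendritic tips. *Nyx* was at 12.3 and 8.22 FPKM in the controls (mice 7984 and 3911) against 17.8 and 12.1 FPKM in *Rax* iCKO (mice 7983 and 3914). It was higher in *Rax* iCKO than in the control of the same run in both runs, and the genotypes still overlapped because the run of 3911 and 3914 was lower. *Lrit3*, at 1.36 and 0.817 FPKM in the controls against 0.861 and 0.523 FPKM in *Rax* iCKO, rested on an estimated 12 to 42 reads per library and did not reach a mean of 1 FPKM. *Isl1*, a LIM homeobox gene of ON bipolar cells, was at 220.2 and 591 FPKM in the controls against 356 and 506 FPKM in *Rax* iCKO, with both *Rax* iCKO values between the controls.

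Rod bipolar genes were all present at 39.9 FPKM or more. *Prkca*, which encodes protein kinase C alpha, the usual rod bipolar marker, was at 39.9 and 47.6 FPKM in the controls (mice 7984 and 3911) against 59.3 and 55.6 FPKM in *Rax* iCKO (mice 7983 and 3914), without overlap. *Car8*, a carbonic anhydrase relative, was at 41.9 and 81.1 FPKM in the controls against 61.6 and 64.3 FPKM in *Rax* iCKO. *Sebox*, a homeobox gene, was at 167 and 300.3 FPKM in the controls against 227 and 249 FPKM in *Rax* iCKO. *Bhlhe23*, a basic helix-loop-helix factor needed for the maturation of rod bipolar cells, was at 161 and 259.6 FPKM in the controls against 227 and 248 FPKM in *Rax* iCKO. In *Car8*, *Sebox* and *Bhlhe23* both *Rax* iCKO libraries lay between the 2 controls, the order also seen in *Pcp2*, *Gng13* and *Isl1*.

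The OFF cone bipolar genes were the least abundant group, with sums of 32.3 and 30.3 FPKM in the controls (mice 7984 and 3911) against 36.5 and 37.2 FPKM in *Rax* iCKO (mice 7983 and 3914). *Vsx1*, a homeobox gene that 1 type of ON cone bipolar cell also uses, was at 8.72 and 11.2 FPKM in the controls against 9.65 and 11.1 FPKM in *Rax* iCKO. *Irx5*, of the Iroquois homeobox family, was at 16.3 and 9.34 FPKM in the controls against 14.3 and 12.8 FPKM in *Rax* iCKO. In both genes the genotypes overlapped. *Irx6*, of the same family, was at 2.75 FPKM in each control and at 5.01 and 4.98 FPKM in *Rax* iCKO, close to the same value in both libraries of a genotype. *Pcdh17*, a protocadherin, was at 1.74 and 1.84 FPKM in the controls against 2.29 and 3.06 FPKM in *Rax* iCKO, also without overlap. *Tacr3*, the neurokinin B receptor, was at 1.74 and 3.05 FPKM in the controls against 3.24 and 2.35 FPKM in *Rax* iCKO, and it overlapped. *Neto1*, which encodes an auxiliary subunit of kainate receptors, was at 0.542 and 1.65 FPKM in the controls against 1.18 and 2.64 FPKM in *Rax* iCKO, higher in *Rax* iCKO within each run. *Erbb4*, a neuregulin receptor, was at 0.522 and 0.557 FPKM in the controls against 0.809 and 0.344 FPKM in *Rax* iCKO, with a mean under 1 FPKM.

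The genes of several bipolar types were mostly lowest in control mouse 7984 and highest in *Rax* iCKO mouse 3914. *Cabp5*, a calmodulin-like calcium-binding protein of rod bipolar and several cone bipolar types, was at 389.8 and 703 FPKM in the controls (mice 7984 and 3911) against 558 and 812 FPKM in *Rax* iCKO (mice 7983 and 3914). Its relative *Cabp2* was at 37.7 and 76.0 FPKM in the controls against 49.8 and 96.6 FPKM in *Rax* iCKO. *Scgn*, the calcium-binding secretagogin of cone bipolar cells, was at 133 and 235 FPKM in the controls against 155 and 267 FPKM in *Rax* iCKO. All 3 calcium-binding genes were higher in both mice of the 3911 and 3914 run than in both mice of the other run. *Cplx3*, a complexin of ribbon synapses that other retinal neurons also use, had the same order at 315 and 587 FPKM in the controls against 412 and 635 FPKM in *Rax* iCKO. *Tmem215*, which encodes a transmembrane protein, was at 140.2 and 216 FPKM in the controls against 205 and 247 FPKM in *Rax* iCKO. *Lrtm1*, which encodes a leucine-rich transmembrane protein, was at 17.6 and 23.5 FPKM in the controls against 22.6 and 35.8 FPKM in *Rax* iCKO. In these genes as well the genotypes overlapped and the number runs did not. *Lhx4* (chr1:155698031-155751726, minus strand), a LIM homeobox gene that cones also use, was at 51.9 and 64.1 FPKM in the controls against 83.9 and 122 FPKM in *Rax* iCKO, without overlap of the genotypes. *Prdm8*, a PR domain factor of bipolar cell development, was at 28.9 and 21.4 FPKM in the controls against 54.9 and 25.4 FPKM in *Rax* iCKO, with mouse 7983 far above the other 3. The synaptotagmin gene *Syt2*, at 0.665 and 0.845 FPKM in the controls against 0.532 and 0.909 FPKM in *Rax* iCKO, had a mean under 1 FPKM. The homeobox gene *Zfhx4* did too, at 0.683 and 0.834 FPKM in the controls against 0.890 and 1.25 FPKM in *Rax* iCKO.

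The start sites of 26 of the 32 genes were matched to RefSeq promoter windows of GRCm38.p6, which hold the 250 bases before and the 50 bases after a start site. They were read on both strands for TAATT (reverse complement AATTA), the predicted Rax site that the study names. They were also read for TAATCC (reverse complement GGATTA), the core of the site of the homeobox factors OTX2 and CRX. TAATT was found in windows of 3 of the 26 genes (11.5%), *Pcp2*, *Gng13* and *Trpm1*, against 29.9% of all 27025 genes with a window. TAATCC was found in windows of 6 of the 26 (23.1%), *Trpm1*, *Isl1*, *Gnb5*, *Cabp5*, *Cabp2* and *Lrtm1*, against 8.14% of all genes. The stretches below are examples, 1 for each of 6 genes, and the other stretches with a match are not shown. *Pcp2* is given for its cluster of matches and the others for TAATCC, the motif found in more of the genes, and capitals mark the motif on either strand.
Pcp2: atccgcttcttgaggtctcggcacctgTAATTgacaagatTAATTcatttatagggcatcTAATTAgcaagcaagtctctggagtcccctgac
Trpm1: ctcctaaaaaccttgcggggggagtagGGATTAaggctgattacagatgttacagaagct
Isl1: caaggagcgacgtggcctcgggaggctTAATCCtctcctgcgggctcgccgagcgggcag
Cabp5: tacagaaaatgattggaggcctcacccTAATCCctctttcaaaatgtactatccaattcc
Cabp2: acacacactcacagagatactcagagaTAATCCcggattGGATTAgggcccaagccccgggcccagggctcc
Lrtm1: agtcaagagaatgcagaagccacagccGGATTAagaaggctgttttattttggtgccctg

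The *Pcp2* stretch lies at chr8:3625351-3625443 on the minus strand, outside annotated exons and within *Pcp2* and *Pet100*, which overlap on opposite strands. It holds 4 matches, of which the last 2 share letters. The *Trpm1* stretch lies just before the gene at chr7:64153774-64153833 on the plus strand, and the *Isl1* stretch upstream of the gene at chr13:116309833-116309892 on the minus strand. The *Cabp5* stretch lies at chr7:13397968-13398027 and the *Cabp2* stretch at chr19:4083356-4083427, both on the plus strand, the first before the GENCODE gene and inside the longer RefSeq span of *Cabp5*, and the second in an intron of *Cabp2* before an internal start site. The *Lrtm1* stretch, at chr14:29018108-29018167 on the plus strand, lies upstream of *Lrtm1* and inside *Cacna2d3*, a gene of the opposite strand. A match is only a stretch of letters, and binding was not measured in these libraries.

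The comparison of *Rax* iCKO with control asked whether bipolar genes differ in mTFP-positive cells between Raxflox/flox and Raxflox/WT mice. Fold changes are differences of log2(FPKM + 1), tested with limma across the 12363 genes whose mean reached 1 FPKM, among them 28 of the 32 bipolar genes. None of the 28 passed an adjusted p of 0.05 (0 of 28, adjusted p from limma 0.9999 or more for each), against 3 genes of all tested (0.0243%). With the number run as a block, which the labels do not give as a shared litter, batch or day, 1 of the 28 was called, *Lhx4* (adjusted p from limma 0.0261), against 0.574% of all genes tested in that fit, and 14 were higher at an unadjusted limma p under 0.05, against 6.81%. Without the block, 4 of the 28 were higher in *Rax* iCKO at an unadjusted limma p under 0.05, against 1.26% of all genes tested. Of the 28, 0 were lower at that p, against 198 of 12363 genes tested. The 4 were *Lhx4* (log2 fold change 0.80, standard error 0.26), *Irx6* (0.68, standard error 0.25), *Trpm1* (0.67, standard error 0.24) and *Gpr179* (0.63, standard error 0.23). They encode a transcription factor of several bipolar types, one of OFF cone bipolar cells, the ON channel and the anchor of the RGS proteins. Without 1 mouse the fold change of *Lhx4* ran from 0.53 to 1.07 and that of *Irx6* from 0.67 to 0.68. That of *Trpm1* ran from 0.54 to 0.79 and that of *Gpr179* from 0.47 to 0.79. With quantile normalization 7 of the 28 were higher at that unadjusted p, against 218 of 12363 genes tested, and with equal medians 3, against 124.

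Most bipolar genes lay somewhat higher in *Rax* iCKO. The median log2 fold change of the 28 genes was 0.37, with 27 above 0 and *Pcp2* at -0.015 (standard error 0.70, and 0.38 after quantile normalization), while the median of all genes tested was -0.0044 with 6088 of 12363 above 0. The medians were 0.40 for the 10 ON pathway genes tested and 0.16 for the 4 rod bipolar genes. They were 0.28 for the 6 OFF cone bipolar genes and 0.37 for the 8 genes of several types. At a minimum mean of 5 FPKM, 2 OFF cone bipolar genes were left, with a median of 0.09. Both *Rax* iCKO libraries were above both controls for 8 of the 28 genes, against 15.4% of all genes tested, and both were below for 0 of the 28, against 14.1%. The 8 were the ON pathway genes *Gnao1*, *Rgs11*, *Gpr179* and *Trpm1*, the rod bipolar gene *Prkca*, the OFF cone bipolar genes *Irx6* and *Pcdh17*, and *Lhx4*. *Trpm1* was at 196 ± 24.6 FPKM (SD, n = 2) in control and 310.3 ± 24.1 FPKM (SD, n = 2) in *Rax* iCKO, or 1.59 times the control. *Lhx4* was at 58.0 ± 8.58 FPKM (SD, n = 2) in control and 103 ± 27.1 FPKM (SD, n = 2) in *Rax* iCKO, or 1.78 times the control.

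The median rested in good part on control mouse 7984, in which the bipolar genes were lowest. The median deviation of the 28 genes from their own mean over the 4 libraries was -0.46 in control mouse 7984, 0.14 in control mouse 3911, 0.04 in *Rax* iCKO mouse 7983 and 0.31 in *Rax* iCKO mouse 3914, in log2(FPKM + 1). Without mouse 7984 the median log2 fold change was 0.06, with 15 of 28 genes above 0. It was 0.17 without *Rax* iCKO mouse 3914, with 20 of 28 above 0, 0.49 without *Rax* iCKO mouse 7983 and 0.61 without control mouse 3911. By group, leaving out mouse 7984 gave 0.16 for the ON pathway genes, -0.23 for the rod bipolar genes with 1 of 4 above 0, 0.23 for the OFF cone bipolar genes and -0.0024 for the genes of several types with 4 of 8 above 0. Leaving out mouse 3911 gave 0.67, 0.54, 0.44 and 0.69 in the same order. For the genes of several types the median was 0.61 without mouse 7983 and 0.12 without mouse 3914, and for the rod bipolar genes it was 0.32 with quantile normalization.

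Within the runs of mouse numbers, *Rax* iCKO mouse 7983 was above control mouse 7984 for 27 of the 28 genes, all but *Irx5*, while 48.7% of all genes tested were higher in mouse 7983. *Rax* iCKO mouse 3914 was above control mouse 3911 for 20 of the 28, with 50.2% of all genes tested higher in mouse 3914. *Rax* iCKO was above the control of its own run in both runs for 19 of the 28 genes, against 30.7% of all genes tested, and below it in both runs for 0 of the 28, against 31.7%. The 8 genes of several types were all among the 19, as were 7 of the 10 ON pathway genes, 3 of the 6 OFF cone bipolar genes and, of the 4 rod bipolar genes, *Prkca* alone. The 8 genes above in the first run and below in the second were *Pcp2*, *Gng13*, *Isl1*, *Car8*, *Sebox*, *Bhlhe23*, *Vsx1* and *Tacr3*, and 17.8% of all genes tested had this order.

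**Figure D2:**
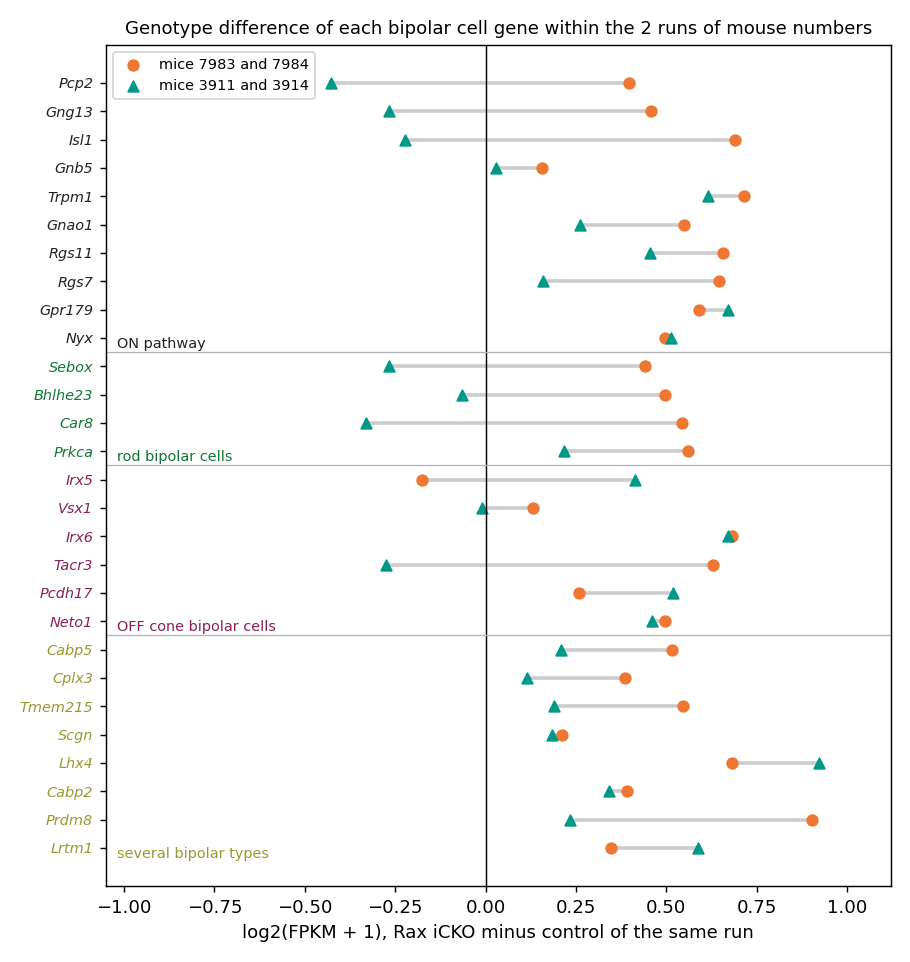
Difference in log2(FPKM + 1) between *Rax* iCKO and the control of the same run for the 28 bipolar genes tested, with circles for mice 7983 and 7984, triangles for mice 3911 and 3914 and gray lines joining the 2 values of a gene. Both points lie right of 0 for 19 genes, and *Trpm1* (0.71 and 0.62) and *Irx6* (0.68 and 0.67) had close values in the 2 runs, whereas *Isl1* was at 0.69 and -0.22.

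The number runs set apart more bipolar genes than the genotypes did, as they did among all genes. Both mice of the 3911 and 3914 run were above both mice of the other run for 16 of the 28 genes, against 29.1% of all genes tested, and below them for 3 (*Irx5*, *Nyx* and *Prdm8*), against 26.8%. The median difference between the runs, 3911 and 3914 minus 7983 and 7984, was 0.43 in log2(FPKM + 1) with 23 of 28 genes above 0, while the median of all genes tested was 0.0070. Without control mouse 7984 it was 0.16 with 18 of 28 above 0, without *Rax* iCKO mouse 7983 it was 0.67, and with quantile normalization it was 0.28. By group it was 0.35 for ON pathway, 0.45 for rod bipolar, 0.14 for OFF cone bipolar and 0.61 for the genes of several types. At an adjusted limma p under 0.05, 1 of the 28 genes was higher in the 3911 and 3914 run, against 0.696% of all genes tested, and 0 of the 28 were lower, against 2.1%. The gene was *Cabp2* (difference 0.97, standard error 0.20, adjusted p from limma 0.0498), a call that was lost with a pseudocount of 0.1 (adjusted p from limma 0.0508), without the filter, with quantile normalization, without the variance trend and without any single mouse. With genotype as a block, 11 of the 28 genes were called, against 18.8% of all genes tested in that fit, *Cabp2* among them (adjusted p from limma 0.00094). At an unadjusted limma p under 0.05, 8 of the 28 genes were higher in the 3911 and 3914 run, against 11.7% of all genes tested, namely *Pcp2*, *Gnb5*, *Isl1*, *Neto1*, *Scgn*, *Cabp5*, *Cabp2* and *Cplx3*. The largest difference was that of *Pcp2* (1.24, standard error 0.35), whose mean FPKM was 2.37 times as high in the 3911 and 3914 run. *Prdm8* was lower (-0.75, standard error 0.28), and without 1 mouse its difference ran from -1.20 to -0.30. With quantile normalization 5 of the 28 genes were higher at that unadjusted p, against 1371 of 12363 genes tested. With equal medians 12 were, against 1973 of 12363. Among markers of other cell types, the 12 Müller glial markers had a median run difference of -0.38 with 0 of 12 above 0, and *Abca8a*, *Sox2* and *Kcnj10* were lower in the 3911 and 3914 run at an adjusted limma p under 0.05. The 6 microglia markers had a median of -0.75 with 0 of 6 above 0. The 7 cone markers tested went both ways, with 4 of 7 above 0, among them *Gnb3*, which bipolar cells also use, and *Gngt2* was higher in the 3911 and 3914 run (0.80, adjusted p from limma 0.0496). Their part in the run difference of the bipolar genes was not tested.

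Exon length varied with both differences. Across the 28 genes, Spearman's rho between exon length and the run difference was -0.56, and across the 11909 genes tested that had a length it was -0.40. For the genotype difference it was 0.58 across the 28 genes and 0.33 across all. These are descriptions across genes that share the 4 libraries. The 5 bipolar genes with less than 2000 bases of exon, from *Gng13* at 773 bases to *Pcp2* at 1675 bases, had a median run difference of 0.80, and the other 23 had a median of 0.26. For all genes the medians were 0.28 under that length and -0.08 above it. The part of exon length in the bipolar results was not tested.

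**Figure D3:**
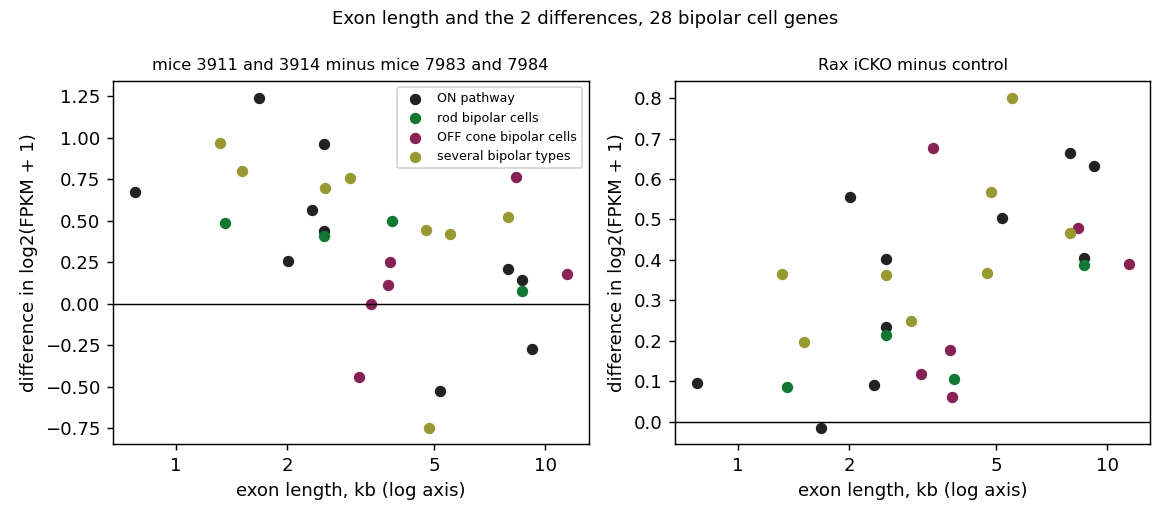
Exon length (kb, log axis) against the difference in log2(FPKM + 1) for the 28 bipolar genes, for mice 3911 and 3914 minus mice 7983 and 7984 (left) and for *Rax* iCKO minus control (right), 1 point per gene, colored by group. The left points decline with length (rho -0.56) and the right points climb (rho 0.58).

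Another 21 genes known in bipolar cells are not among the 32. Of the 20 tested, 0 passed an adjusted p of 0.05 between the genotypes, and 17 had a genotype difference above 0 with a median of 0.27. In 7 of the 20 both *Rax* iCKO libraries were above both controls, against 15.4% of all genes tested, and in 14 of the 20 *Rax* iCKO was above the control in both runs, against 30.7%. Between the number runs their median difference was 0.13 with 11 of 20 above 0. Both mice of the 3911 and 3914 run were above the other run for 6 of the 20, against 29.1% of all genes tested, and below it for 4, against 26.8%. *Gnb3*, the beta subunit of Go in ON bipolar cells and of cone transducin, was at 965 and 1472 FPKM in the controls (mice 7984 and 3911) against 1377 and 1713 FPKM in *Rax* iCKO (mice 7983 and 3914). *Nnat*, at 316 and 484 FPKM in the controls against 294 and 383 FPKM in *Rax* iCKO, was lower than the control in both runs, as was *Col11a1*.

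Müller glial and rod markers lay the other way between the genotypes, with 0 of them at an adjusted limma p under 0.05 in that comparison. All 12 Müller glial markers were present, led by *Apoe* (3901 to 5041 FPKM), *Rlbp1* (1292 to 2616 FPKM) and *Clu* (1215 to 1951 FPKM). Their summed FPKM was 14977 and 11239 in the controls (mice 7984 and 3911) against 10224 and 10219 in *Rax* iCKO (mice 7983 and 3914), highest in control mouse 7984, where the bipolar sum was lowest. The median genotype difference of the 12 markers was -0.29, with 1 of 12 above 0 and 10 of 12 below the control in both runs, against 31.7% of all genes tested. The 12 rod markers, led by *Sag*, *Gngt1* and *Gnat1*, summed to 2062 and 2193 FPKM in control and 1545 and 1432 FPKM in *Rax* iCKO. Their median genotype difference was -0.56 and all 12 were below the control in both runs, against the same 31.7% of all genes. The 6 microglia markers had a median genotype difference of -0.33 with 0 of 6 above 0. Of these 6, 0 were below the control in both runs, again against 31.7% of all genes tested. Of the cone markers 7 of 8 were tested, with a median genotype difference of -0.07. Their sum, 1122 to 1912 FPKM, was mostly *Gnb3*, followed by *Gngt2* (45.9 to 90.5 FPKM) and *Gnat2* (29.3 to 39.8 FPKM). The part of other cells' RNA in the bipolar differences was not tested.

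**Figure D4:**
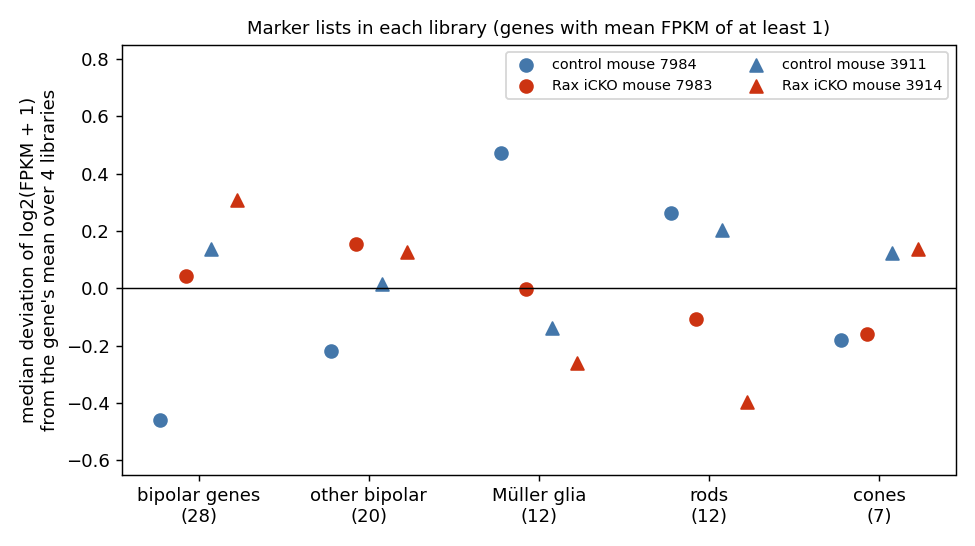
Median deviation of log2(FPKM + 1) from each gene's mean over the 4 libraries (vertical axis) for the bipolar genes, the other bipolar genes and the Müller glial, rod and cone markers, 1 point per mouse, with blue for control and red for *Rax* iCKO. In control mouse 7984 the 28 bipolar genes were at -0.46 and the Müller glial markers at 0.47.

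Markers of the other inner retinal neurons were low beside the bipolar genes. The 8 amacrine markers, led by *Slc6a9*, *Gad1* and *Gad2*, summed to 4.47 to 10.4 FPKM. The 4 horizontal cell markers, with *Calb1*, *Onecut2* and *Lhx1* the highest, summed to 0.767 to 1.08 FPKM, and the 7 ganglion cell markers, led by *Sncg*, *Nefl* and *Rbpms*, to 6.14 to 15.1 FPKM with *Pou4f1* at 0 in every library. The 5 pigment epithelium markers, led by *Ttr*, *Best1* and *Rpe65*, summed to 1.47 to 7.65 FPKM with *Mlana* at 0 in every library. Of the microglia markers, *Csf1r* was at 0.467 to 10.8 FPKM and *C1qa* at 0.853 to 7.94 FPKM, both lowest in *Rax* iCKO mouse 3914.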

How the data were processed

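Total RNA of FACS-sorted mTFP-positive cells of 4 mice was measured by RNA-seq. The labels name the miRNeasy Micro Kit with SMART-Seq HT and Nextera XT libraries, whereas the paper names TRIzol LS, and which was used is not known. The authors aligned 101-base reads, sequenced from 1 end, with TopHat, Bowtie2 and SAMtools against mm10, and the deposited FPKM give 1 value for each gene symbol in each library. The submitters' processing notes list TopHat2 2.1.1, Bowtie2 2.2.8, SAMtools 0.1.18 and Cuffdiff 2.2.1, and the paper lists other versions and Cufflinks. Whether strand was used in counting is not given in the sources used here. This bears on 9 of the 32 genes, whose exons overlap another gene, such as *Pcp2* with *Pet100* and *Gng13* with *Chtf18*.

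FPKM were used as deposited. Depth was estimated from low values of genes with 1 transcript of at least 600 bases, of which 73.7% to 77.9% lay within 0.1 of a whole read. These depths are estimates, so no test was made on reads. Differences in log2(FPKM + 1) were fitted in R 4.3.3 by limma 3.58.1, with lmFit and a variance trend in eBayes, over every gene whose mean reached 1 FPKM, and p-values were adjusted over these genes by Benjamini-Hochberg. On this scale the change of a low gene is understated. For single sums an exact permutation test over every split of the libraries into 2 against 2 was used, and scipy 1.17.1 gave Spearman's rho. The limma step was tested on simulated data. The 2 genotypes and the 2 runs of mouse numbers were each compared without a covariate. Each library carries a mouse number of its own, so p-values measure the spread between these mice. The members and lists were chosen with earlier results of these data known. Alternatives were a pseudocount of 0.1, no filter, a minimum mean of 5 FPKM, equal medians, quantile normalization, a fit without the variance trend, the other factor as a block and leaving out each mouse. Genes whose mean reached 1 FPKM were named with every value, those below it with every value where one reached 0.5 FPKM, and the 3 most abundant genes of each other list were named, as were *Rax*, for the labels, and *Xist* and *Ddx3y*, which were chosen after their values were seen. *Col11a1*, *Abca8a*, *Sox2*, *Kcnj10* and the genes listed at 0 were also named after their values were seen. Exon lengths and start sites came from GENCODE vM21 and RefSeq, both of GRCm38. Of the most abundant genes of the other lists, 2 are not reported here. The comparison of paired proteins was not analysed here.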

Additional observations from a re-analysis of the deposited data

Results flagged for a closer look

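For 9 bipolar genes the genotype difference had opposite signs in the 2 runs of mouse numbers, against 37.3% of all genes tested, so that 9 of 28 is no more than among all genes. With 1 mouse of each genotype in a run, the difference between the runs was not tested. The values are the difference in log2(FPKM + 1) between *Rax* iCKO and control in mice 7983 and 7984 minus that in mice 3911 and 3914. Among the ON pathway genes the value was 0.82 for *Pcp2*, 0.72 for *Gng13* and 0.91 for *Isl1*. Among the rod bipolar genes it was 0.88 for *Car8*, 0.71 for *Sebox* and 0.56 for *Bhlhe23*. Among the OFF cone bipolar genes it was 0.90 for *Tacr3*, 0.14 for *Vsx1* and -0.59 for *Irx5*, which had the reverse order.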

How the results depend on the processing

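With 2 mice per genotype the exact test of a single sum cannot go under 0.33. Of the genes with a mean under 1 FPKM, *Lrit3* rested on an estimated 12 to 42 reads per library and *Syt2* on 36 to 60. *Erbb4* rested on 38 to 91 and *Zfhx4* on 106 to 160. The genotype comparison called 3 genes, 0 without the filter (254 higher and 370 lower at an unadjusted limma p under 0.05), 0 at a mean FPKM of at least 5 (117 and 162), 6 with equal medians, 71 with the number run as a block and 15 to 20 without 1 mouse, with 0 bipolar genes called except 1 under the block (*Lhx4*, adjusted p from limma 0.0261). The run comparison called 346 genes, 17 without the filter, 212 without the variance trend, 2322 with genotype as a block and 31 to 61 without 1 mouse. Of the bipolar genes it called 1, with 0 at a pseudocount of 0.1, without the filter, with quantile normalization, without the variance trend and without any 1 mouse, and 11 with genotype as a block. The labels do not say that a number run marks a shared litter, batch or day, so the block is not a pairing. The replicate block for genotype is the number run, taken from neighbouring mouse numbers alone. The median genotype difference of the bipolar genes ran from 0.06 to 0.61 without 1 mouse, and the median run difference from 0.16 to 0.67. Quantile normalization reversed *Pcp2* between genotypes (0.38) and *Gnao1* (-0.045), *Trpm1* (-0.089), *Prkca* (-0.020) and *Irx6* (0.15) between runs, and equal medians reversed *Irx6* between runs (0.075). Equal medians moved the median run difference of all genes from 0.0070 to 0.086, and quantile normalization to 0.034. Without 1 mouse the genotype difference changed sign for *Pcp2* (-0.84 to 0.81), *Gng13* (-0.42 to 0.61), *Gnb5* (-0.22 to 0.40), *Isl1* (-0.48 to 0.94), *Car8* (-0.36 to 0.57), *Sebox* (-0.33 to 0.51), *Bhlhe23* (-0.13 to 0.56), *Vsx1* (-0.10 to 0.22), *Irx5* (-0.25 to 0.49), *Tacr3* (-0.11 to 0.46), *Scgn* (-0.21 to 0.61), *Cabp5* (-0.062 to 0.79), *Cabp2* (-0.13 to 0.86) and *Cplx3* (-0.20 to 0.70). The run difference did so for *Gnao1* (-0.13 to 0.42), *Rgs11* (-0.073 to 0.58), *Trpm1* (-0.15 to 0.56), *Gpr179* (-0.61 to 0.059), *Prkca* (-0.20 to 0.36), *Irx6* (-0.34 to 0.34), *Tacr3* (-0.20 to 0.43), *Pcdh17* (-0.081 to 0.44) and *Lhx4* (-0.043 to 0.88). The cause of these moves was not tested.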
